A study of Rattus norvegicus with 4 samples.

Results

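The contractile genes of smooth muscle were examined in tendon stem/progenitor cells of aged rats (rTSPCs, cells isolated from tendon) that were treated with prim-O-glucosylcimifugin (POG) or with its solvent. The set holds 8 genes of 7235 that carried a name on the array, and all 8 were measured: Myh11, Myl9, Mylk, Acta2, Actg2, Tagln, Cnn1 and Lmod1. They were chosen by name around Myh11, which was itself selected on its large difference between the POG and DMSO arrays measured here. The difference between these arrays is therefore given for the members as a description. No p-value is printed for a member, and counts of members past a threshold are not read as a result. RNA was profiled on 4 Affymetrix rat transcriptome arrays. The 2 arrays named 18M + POG held rTSPCs of 18-month-old rats cultured with POG, a chromone of Saposhnikovia root, at 20 μM. The 2 arrays named 18M + DMSO held rTSPCs of rats of the same age treated with dimethyl sulfoxide. For both groups the labels describe treatment until passage 12. The paper describes treatment over days for aged rTSPCs, and serial passaging to passage 12 for cells of young rats. How long the cells on these arrays were treated is therefore not settled. The labels give no sex, strain or genotype of the rats and no rat of origin for each array. The paper describes its rats as male Sprague-Dawley animals. Titles of the DMSO arrays name both treatments, so the groups follow the treatment entries. The labels call the 2 arrays of a group biological replicates but do not name separate animals, and any p-value here covers no more than the variation among the arrays.

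Smooth muscle contracts when actin filaments slide along filaments of smooth muscle myosin. Calcium bound to calmodulin activates a kinase that phosphorylates the regulatory light chain of myosin, and a phosphatase reverses this. Most genes of the apparatus are under the control of serum response factor (SRF), which binds CArG boxes in DNA, together with its coactivators myocardin and the myocardin-related factors. Cultured fibroblasts and myofibroblasts also express part of the apparatus, above all the actin gene Acta2 and the actin-binding gene Tagln, whereas smooth muscle myosin heavy chain is known as a marker of mature smooth muscle.

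Values are log2 signals after robust multichip analysis (RMA), in which a difference of 1 is a doubling. Array medians lay between 8.55 and 8.68, the lowest signals between 3.08 and 3.15 and the highest between 19.13 and 19.41. Arrays of a group correlated across all features at 0.994 for POG and 0.995 for DMSO, and arrays of different groups at 0.962 to 0.965. Among tendon markers, Dcn, a small proteoglycan, was at a mean of 16.76 in POG and 15.58 in DMSO arrays. The tendon transcription factor Scx was at 5.67 in POG and 6.01 in DMSO arrays, and Comp at 4.72 and 4.65. Scx and Comp lay below 6.59, the 25th percentile of mean signal over all named genes. These values describe the cells and do not settle the label. Tnmd and Mkx were not analysed here.

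Myh11, which encodes the smooth muscle myosin heavy chain, was the member with the widest separation. Its signal was 11.07 and 10.95 in the POG arrays, against 7.94 and 7.80 in the DMSO arrays. Both POG arrays thus stood more than 3 log2 units above both DMSO arrays, with a gap of 3.01 between the nearest values. Means were 11.01 ± 0.08 in POG and 7.87 ± 0.10 in DMSO arrays (SD, n = 2 each), which is a log2 fold change of 3.14 (standard error 0.19) or a signal 8.82-fold higher. Ranked by increase, Myh11 stood at place 9 among the 7235 named genes. The array has 1 feature for the gene. In such bulk samples, more cells of a type and more RNA per cell cannot be told apart.

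**Figure D1:**
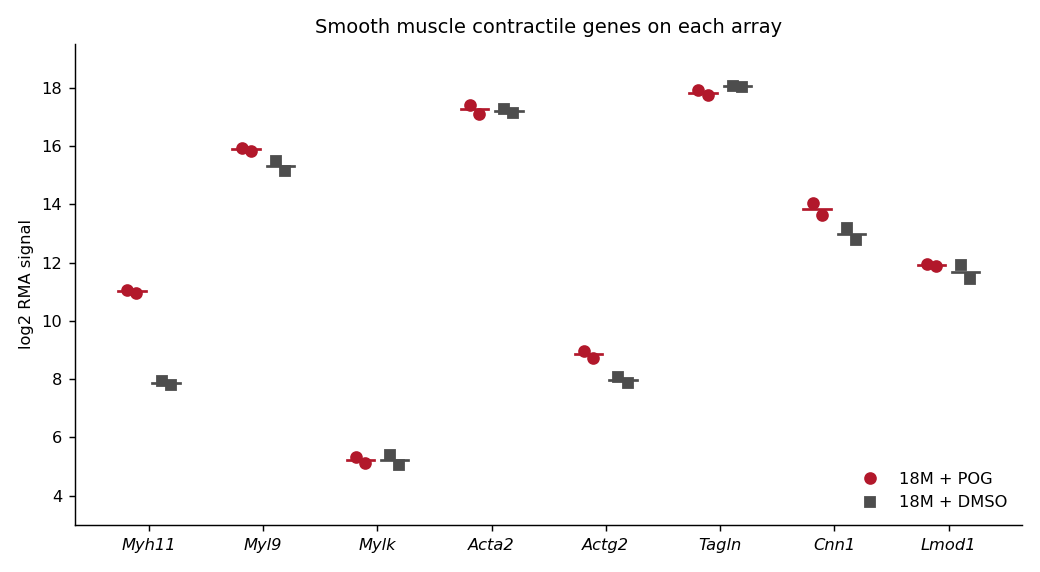
Log2 RMA signal of the 8 contractile genes (horizontal axis) on each of the 4 arrays, with 18M + POG as red circles, 18M + DMSO as grey squares and a line at each group mean. Myh11 at 11.07 and 10.95 lies apart from 7.94 and 7.80, whereas the points of Acta2, Mylk and Lmod1 overlap between the groups.

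The other myosin members moved less. Myl9, which encodes the regulatory light chain of smooth muscle and nonmuscle myosin, gave 15.94 and 15.84 in POG arrays, against 15.47 and 15.15 in DMSO arrays. The groups did not overlap, with a gap of 0.37, and the log2 fold change was 0.58 (standard error 0.20). Mylk, the gene of the kinase that phosphorylates this light chain, gave 5.33 and 5.14 in POG arrays and 5.40 and 5.04 in DMSO arrays. Its POG values fell between its DMSO values, and the log2 fold change was 0.02 (standard error 0.21). The tables hold no detection calls, so whether the Mylk signal stood above background was not tested.

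The actin members differed from each other. Acta2, the smooth muscle alpha-actin gene and a common marker of myofibroblasts, gave 17.41 and 17.11 in POG arrays, against 17.26 and 17.13 in DMSO arrays. These values overlapped, and the change was 0.07 on the log2 scale (standard error 0.20). Actg2, the gamma-actin gene of visceral smooth muscle, gave 8.98 and 8.74 in POG arrays, against 8.08 and 7.87 in DMSO arrays. The groups lay 0.66 apart, and the log2 fold change of 0.89 (standard error 0.20) corresponds to a signal 1.85-fold higher with POG. Actin genes are closely alike in their coding sequence, and the probe sequences were not used here, so cross-hybridization between Acta2 and Actg2 was not tested.

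Among the actin-associated members, Cnn1 was higher and Tagln and Lmod1 showed small differences of opposite sign. Cnn1, which encodes the thin filament protein calponin, gave 14.05 and 13.62 in POG arrays and 13.17 and 12.78 in DMSO arrays. The groups lay 0.45 apart and the change was 0.86 on the log2 scale (standard error 0.22). Tagln, which encodes the actin-binding protein transgelin (SM22), gave 17.91 and 17.76 in POG arrays and 18.07 and 18.02 in DMSO arrays. Its log2 fold change was -0.21 (standard error 0.19), and its groups did not overlap by a margin of 0.11. Lmod1, the gene of leiomodin, which nucleates actin filaments, gave 11.96 and 11.87 in POG arrays and 11.91 and 11.42 in DMSO arrays. One DMSO value of Lmod1 lay between its POG values, and its log2 fold change was 0.25 (standard error 0.21), a value that was 0.005 without DMSO replicate 2 and 0.50 without DMSO replicate 1.

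By limma's fit over all named genes, 4 of the 8 members (Myh11, Actg2, Cnn1 and Myl9) were past an adjusted p of 0.05 as higher, where 20.4% of all named genes were, and 0 were past it as lower, where 17.2% of all were. Without adjustment, also at 0.05, limma counted 4 higher and 0 lower. The arrays of both groups did not overlap for 5 of the 8 members, against 69.8% of all named genes. Since this contrast chose Myh11, nothing is read from these counts. The median log2 fold change of the members was 0.42, against 0.04 over all named genes, and their range ran from -0.21 to 3.14. With 1 array left out at a time, 1 to 2 members were past the threshold as higher. Cnn1 and Myl9 dropped out of the count each time, at log2 fold changes of 0.65 to 1.08 for Cnn1 and 0.42 to 0.74 for Myl9, and Actg2 dropped out without POG replicate 1 or DMSO replicate 2. Myh11 ranged from 3.07 to 3.21 in these fits, and as the gene chosen on these arrays it gains no support from them. The sign turned for Acta2, at -0.09 to 0.22, and for Mylk, at -0.17 to 0.20, while Tagln ranged from -0.29 to -0.14.

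**Figure D2:**
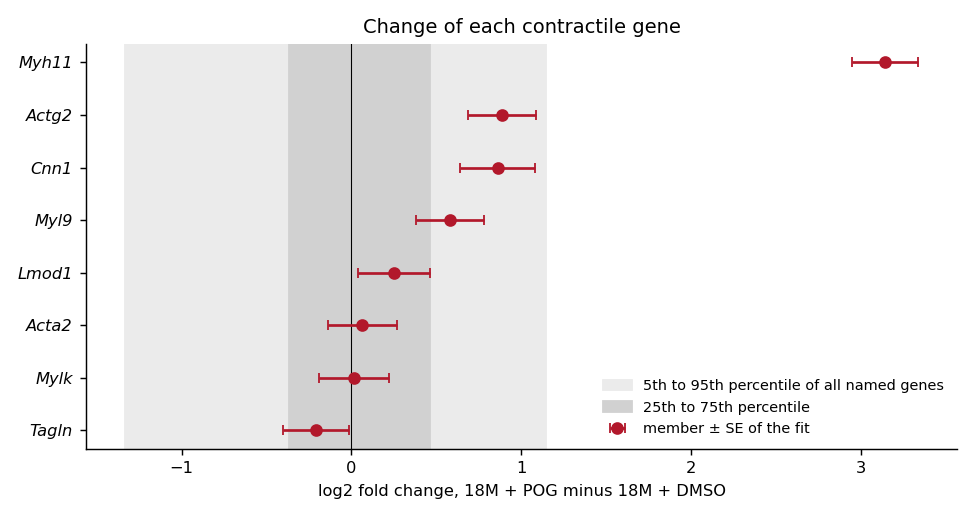
Log2 fold change of each member, 18M + POG minus 18M + DMSO, with the standard error of the fit as bars, over grey bands for the middle range of all 7235 named genes (5th to 95th percentile, -1.33 to 1.15, and 25th to 75th, -0.37 to 0.46). Myh11 at 3.14 is the sole member outside the wider band, and Lmod1, Acta2, Mylk and Tagln lie inside the narrower one.

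The members also differed in change when set against each other within arrays, which removes any offset that an array gives to both genes. The log2 signal of Myh11 minus that of another member was higher in both POG arrays than in both DMSO arrays for each of the 7 others. The difference in change was smallest against Actg2, at 2.26 (standard error 0.07), and largest against Tagln, at 3.35 (standard error 0.05). The ratio of Myh11 to Tagln signal was thus 10.2-fold higher with POG. Tagln, at a mean of 17.94, and Acta2, at 17.23, stood at places 16 and 43 of all named genes by mean signal. Whether signals so high still rise in step with RNA was not tested. Actg2 and Cnn1 differed in change by 0.03 (standard error 0.13), and the within-array differences of that pair overlapped between groups. Acta2 and Mylk differed in change by 0.05 (standard error 0.13), and Lmod1 and Acta2 by 0.19 (standard error 0.21), again with overlap. The pair of actin genes differed by 0.82 (standard error 0.05). Of the 28 pairs of members, 9 differed in change by more than 1 log2 unit, of which 7 involved Myh11. These standard errors rest on 2 arrays in each group and are a description.

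**Figure D3:**
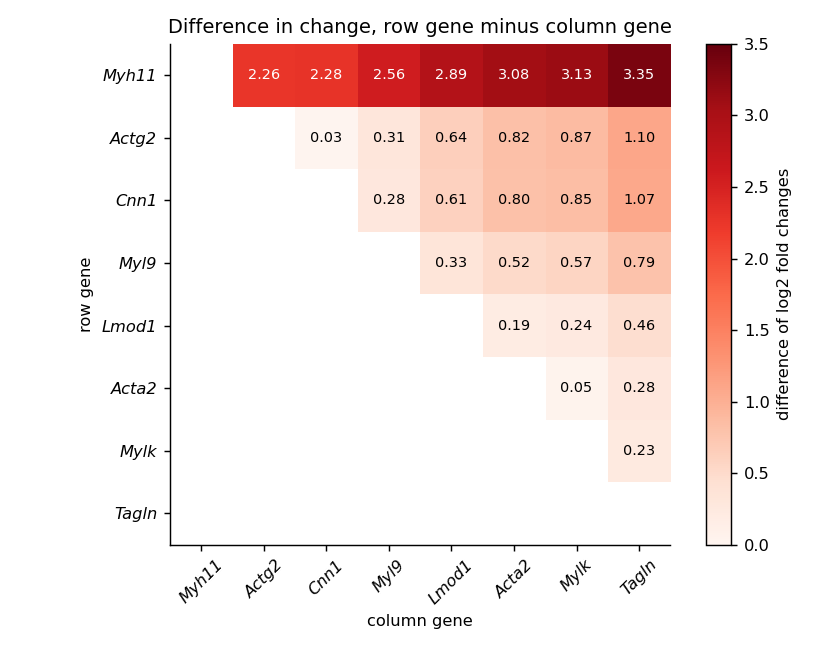
Difference in log2 fold change between each pair of members, row gene minus column gene, with members ordered by their change. The top row, Myh11 minus the 7 others, runs from 2.26 to 3.35, and the differences among Lmod1, Acta2, Mylk and Tagln stay at 0.46 or below.

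Promoter sequences bear on the members as targets of SRF, and the RefSeq table (build GRCr8) gave a window of 250 bases before to 50 bases after a gene start for 4 of the 8 members, Acta2, Actg2, Cnn1 and Mylk. Windows whose start site is the first base of the annotated gene are shown for Acta2, whose arrays overlapped, and Cnn1, whose arrays did not. Capitals mark matches to the CArG box with at most 1 mismatch, a motif that reads alike on both strands. The windows are chr1:241172454-241172753 on the minus strand for Acta2 and chr8:28908187-28908486 on the plus strand for Cnn1, each printed 5′ to 3′ along the gene.
Acta2: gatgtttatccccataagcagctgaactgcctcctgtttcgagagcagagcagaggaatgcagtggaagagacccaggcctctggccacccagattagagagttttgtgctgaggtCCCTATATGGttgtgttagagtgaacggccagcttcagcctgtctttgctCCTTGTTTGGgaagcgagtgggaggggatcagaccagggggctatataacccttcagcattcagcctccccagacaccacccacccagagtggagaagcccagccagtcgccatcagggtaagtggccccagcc
Cnn1: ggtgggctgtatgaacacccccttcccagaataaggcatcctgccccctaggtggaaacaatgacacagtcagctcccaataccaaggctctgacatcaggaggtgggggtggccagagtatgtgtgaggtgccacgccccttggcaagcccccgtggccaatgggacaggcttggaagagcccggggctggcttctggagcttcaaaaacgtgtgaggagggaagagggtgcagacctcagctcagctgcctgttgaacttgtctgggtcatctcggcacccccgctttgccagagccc
Acta2 held 2 such matches, CCCTATATGG from 134 to 125 bases before the start and CCTTGTTTGG from 84 to 75 bases before it, each with 1 mismatch. The Cnn1 window held 0, as did those of Actg2 and Mylk, where the start in the table lies 10340 and 36876 bases into the annotated gene. A match with at most 1 mismatch stood in 21.0% of 27457 promoter windows and in 16.6% of those of 6073 genes measured here, and an exact CArG box in 1.64% of all windows and in none of the 4 members. CATTCC, the MCAT element bound by TEAD factors, stood on either strand in 1 place each in Acta2 and Mylk and in 13.9% of all windows, and TATAAA in none of the 4 members and in 14.3% of all windows. The matches did not overlap each other. A match describes the letters of the window and does not show binding.

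Among the upstream regulators, the largest decrease was that of Myocd. This gene, which encodes myocardin, the coactivator of SRF in smooth muscle and heart, gave 8.99 and 8.84 in POG arrays, against 10.05 and 9.97 in DMSO arrays. Both POG values were below both DMSO values, and the log2 fold change was -1.10 (standard error 0.19, adjusted p = 0.000526 from limma). Srf itself gave 9.29 and 9.10 in POG arrays and 9.68 and 9.72 in DMSO arrays, a log2 fold change of -0.51 (adjusted p = 0.0543) that missed the threshold. Srf passed once the dimmest 25% of genes were removed (adjusted p = 0.0452) or the replicate number was a block (adjusted p = 0.0474), and in no fit with 1 array left out (lowest adjusted p = 0.0919). Mrtfa and Mrtfb were not analysed here. The list of SRF, myocardin and TGF-beta linked regulators had 31 measured genes, with a median log2 fold change of 0.29. Of these, 9 were higher (29.0%, beside 20.4% of all named genes) and 3 were lower (9.68%, beside 17.2%). The Notch ligand gene Jag1 (log2 fold change 1.15, adjusted p = 0.001396), the Notch target gene Hey1 (1.09, adjusted p = 0.0130) and the transcription factor gene Mef2a (0.86, adjusted p = 0.00317) were the higher genes with the largest changes, and each lost its call in some fit with 1 array left out. Jag1 did so without POG replicate 1 or DMSO replicate 1 (highest adjusted p = 0.0845), Hey1 without any array but DMSO replicate 1 (highest 0.317) and Mef2a without any but POG replicate 1 (highest 0.0539). With 1 array left out, 1 to 2 genes of the list were higher and 1 to 2 lower, and Myocd was past the threshold in each of the 4 fits (highest adjusted p = 0.0349).

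**Figure D4:**
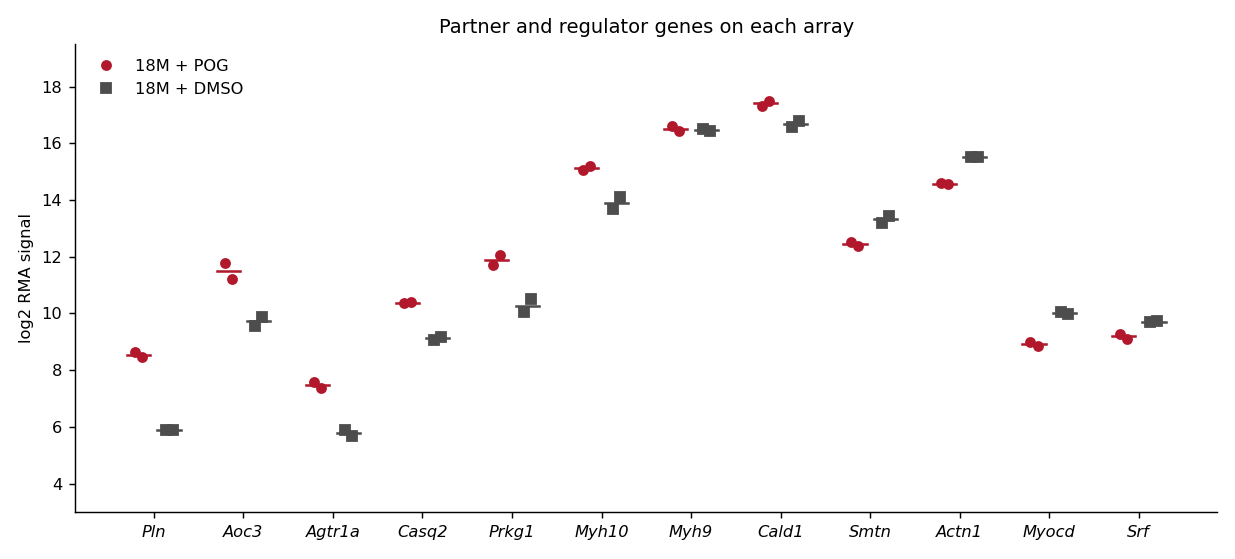
Log2 RMA signal of 12 partner and regulator genes on each array, with 18M + POG as red circles, 18M + DMSO as grey squares and a line at each group mean. Pln, Aoc3, Agtr1a and Casq2 lie higher in the POG arrays, the points of Myh9 overlap, and Smtn, Actn1 and Myocd lie lower in the POG arrays.

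Immediate targets of SRF and its cofactors, most of them known outside smooth muscle, form the next list. Of 23 measured genes, 4 were higher (17.4%, beside 20.4% of all named genes) and 1 was lower (4.35%, beside 17.2%), with a median log2 fold change of -0.02. Among the higher genes were the immediate early genes Nr4a1 (1.78, adjusted p = 1.98e-05), Egr2 (1.14, adjusted p = 0.000338) and Junb (0.95, adjusted p = 0.00198). The lower one was Wdr1, a cofactor of actin filament disassembly, at -0.64 (adjusted p = 0.0181), which was lost with any 1 array left out (adjusted p 0.0782 to 0.113), as Junb was without POG replicate 2 or DMSO replicate 1 (highest 0.0623). By limma with 1 array left out, 2 to 3 of the list were higher and 0 lower. Without adjustment, limma on all 4 arrays gave 4 higher and 5 lower.

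Other chains of the motor and thin filament moved in both directions. Their shares stand beside 20.4% higher and 17.2% lower over all named genes. Of 10 measured myosin genes outside the set, 3 were higher and 1 was lower, in shares of 30% and 10% (1 to 2 higher and 0 to 1 lower with 1 array left out). Myh10, a nonmuscle myosin heavy chain gene, gave 15.04 and 15.19 in POG arrays, against 13.69 and 14.12 in DMSO arrays, which is 1.21 on the log2 scale (adjusted p = 0.000438), a call lost without POG replicate 2 (adjusted p = 0.0524). Its relative Myh9 gave 16.61 and 16.42 in POG arrays and 16.50 and 16.42 in DMSO arrays, with overlap and a log2 fold change of 0.06 (adjusted p = 0.845). Myo1e, an unconventional myosin gene, was higher at 1.43 (adjusted p = 4.59e-05), Myo5a was higher at 0.62 (adjusted p = 0.0216, lost with any 1 array left out at 0.0832 to 0.128), and the light chain gene Myl2 was lower at -0.75 (adjusted p = 0.01625), a call that held without DMSO replicate 2 alone (0.0447 to 0.216 over the 4 fits). Of 12 measured actin and thin filament genes, 2 were higher (16.7%) and 1 was lower (8.33%). The thin filament genes Cnn3 (0.76, adjusted p = 0.00739) and Cald1, which encodes caldesmon (0.71, adjusted p = 0.0119), were higher, and Smtn, which encodes smoothelin, was lower at -0.87 (adjusted p = 0.00356). Both increases were lost with any 1 array left out, at adjusted p of 0.0544 to 0.0964 for Cnn3 and 0.0629 to 0.132 for Cald1, and Smtn passed without DMSO replicate 1 alone (0.0391 to 0.0756 over the 4 fits). The tropomyosin genes Tpm1, Tpm2, Tpm3 and Tpm4 had log2 fold changes from -0.42 to 0.32 and did not pass.

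Genes that set light chain phosphorylation mostly stayed below the threshold. Of 20 measured, 2 were higher (10%, beside 20.4% of all named genes) and 2 were lower (10%, beside 17.2%), with a median log2 fold change of 0.00. Prkg1, the cyclic GMP-dependent kinase that relaxes smooth muscle, gave 11.70 and 12.05 in POG arrays, against 10.04 and 10.50 in DMSO arrays, at a log2 fold change of 1.61 (adjusted p = 5.62e-05). The calcium release channel gene Itpr1 was higher at 0.89 (adjusted p = 0.00385), which held without POG replicate 2 alone (0.0352 to 0.0826 over the 4 fits). Cit, the citron kinase gene, which acts in cytokinesis, was lower at -1.72 (adjusted p = 1.04e-05), and Ppp1r14c, an inhibitor of the phosphatase, at -0.58 (adjusted p = 0.03195, lost with any 1 array left out at 0.0943 to 0.183). Ppp1r12a and Ppp1cb, which encode subunits of myosin phosphatase, had log2 fold changes of 0.26 and 0.17 and did not pass.

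In the list of membrane and calcium-handling markers of smooth muscle, more genes were higher than lower. All lists were written with earlier results of these data known, so their shares are a description. Of 28 measured channel, receptor and enzyme genes, 12 were higher (42.9%, beside 20.4% of all named genes) and 2 were lower (7.14%, beside 17.2%), with a median log2 fold change of 0.52. Pln, which encodes phospholamban, the brake on the calcium pump of the sarcoplasmic reticulum, gave 8.63 and 8.45 in POG arrays, against 5.89 and 5.90 in DMSO arrays. Its log2 fold change was 2.65 (standard error 0.19, adjusted p = 1.16e-07). Aoc3, an amine oxidase of the smooth muscle surface, was higher at 1.79 (adjusted p = 2.90e-05), the angiotensin receptor gene Agtr1a at 1.68 (adjusted p = 1.50e-05) and the calcium store gene Casq2 at 1.26 (adjusted p = 0.000152). These 4 genes were past the threshold with any 1 array left out. The 2 lower genes of the list were Kcnq5 at -0.98 (adjusted p = 0.00189) and Jph2 at -0.67 (adjusted p = 0.0139). With 1 array left out, Kcnq5 ranged from -1.125 to -0.835 and Jph2 from -0.70 to -0.64. The calcium pump gene Atp2a2, on which phospholamban acts, gave 14.84 and 14.65 in POG arrays and 14.93 and 14.99 in DMSO arrays (log2 fold change -0.22, adjusted p = 0.408). With 1 array left out, 7 to 8 of this list were higher and 0 to 1 lower.

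Dense body, adhesion and filament genes were split. In 36 measured genes there were 6 higher (16.7%, beside 20.4% of all named genes) and 4 lower (11.1%, beside 17.2%), with a median log2 fold change of -0.04. The integrin genes Itga8 (1.19, adjusted p = 0.000348) and Itga1 (1.17, adjusted p = 0.000368) were higher, while the small heat shock gene Cryab (-1.72, adjusted p = 1.19e-05) and the actin crosslinker gene Actn1 (-0.95, adjusted p = 0.00151) were lower. These 4 calls held with any 1 array left out, when 2 to 4 of the list were higher and 2 lower. Over all 7 lists, with each gene counted once, 38 of 150 measured genes were higher (25.3%, beside 20.4% of all named genes) and 14 were lower (9.33%, beside 17.2%), and their median log2 fold change was 0.15. Without any 1 array, 16 to 19 were higher and 4 to 7 lower.

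**Figure D5:**
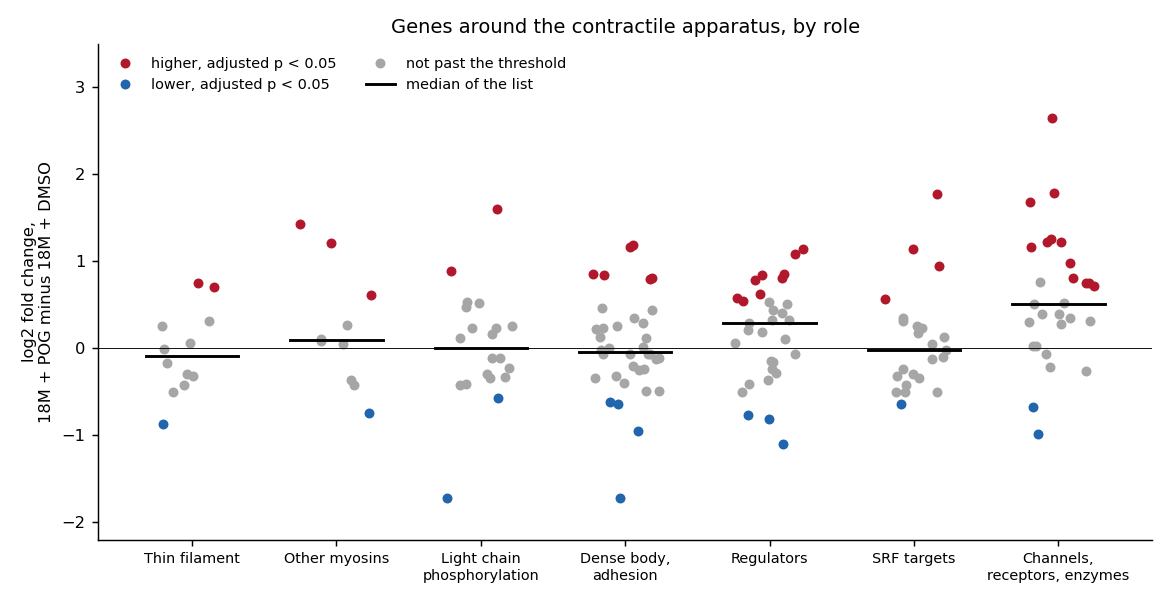
Log2 fold change, 18M + POG minus 18M + DMSO, of the genes in 7 lists around the contractile apparatus, 1 point for each measured gene outside the 8 members, coloured by limma's call, with a black line at each list's median. The channel, receptor and enzyme list has 12 of 28 genes higher and a median of 0.52, while the thin filament list has 2 of 12 higher and a median of -0.09.

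Markers of other cells were read beside these results. Of 10 measured pericyte markers, 5 were higher (50%, beside 20.4% of all named genes) and 2 were lower (20%, beside 17.2%). Their summed signal was 16.99 to 17.16 in POG arrays and 15.64 to 15.89 in DMSO arrays on the log2 scale. Most of the sum came from Pdgfrb, a platelet-derived growth factor receptor gene that fibroblasts also express, at 16.81 and 16.60 in POG arrays and 15.57 and 15.27 in DMSO arrays. Angpt1, a ligand of the endothelial receptor Tie2, gave 6.37 and 5.63 in POG arrays, against 3.76 and 3.76 in DMSO arrays, near the lowest signal of the arrays. Anpep was higher by a log2 fold change of 1.49 (adjusted p = 3.255e-05), Cd248 by 1.47 (adjusted p = 8.20e-05) and Mcam by 1.30 (adjusted p = 0.000417), the last lost without POG replicate 1 or POG replicate 2 (highest adjusted p = 0.0624). Cspg4 was lower at -0.84 (adjusted p = 0.00621), past the threshold without DMSO replicate 2 alone (0.0288 to 0.119 over the 4 fits). The other lower marker, Ndufa4l2, was at -0.755 (adjusted p = 0.00732 from limma), and at -0.815 to -0.695 with 1 array left out. Notch3, Higd1b and Cox4i2 had mean signals of 4.05 to 4.45, and Rgs5 was not analysed here. Cell division genes differed between the groups as well, with 21 of 21 measured lower (100%, beside 17.2% of all named genes). Their summed signal was 13.47 to 13.70 in POG arrays and 17.19 to 17.20 in DMSO arrays. Plk1 was lower at -4.265, Mki67 at -4.135, Tk1 at -4.075 and Rrm2 at -4.03 (limma adjusted p at most 6.61e-09). Mki67 encodes Ki67, a protein that the paper reports as higher in POG-treated aged rTSPCs. The RNA here ran the other way, and why was not tested. The direction of every change rests on the treatment entries. Of 4 measured immune markers, 0 passed in either direction, also without adjustment, and Fcer1g, Lyz2 and Cd68 had mean signals between 3.47 and 5.23 and Cd14 8.72 in POG and 8.62 in DMSO arrays. The summed immune signal was 8.89 to 9.06 in POG arrays and 8.77 to 9.03 in DMSO arrays. Of 4 endothelial markers, Eng was higher at 0.67 (adjusted p = 0.02003), lost with any 1 array left out at 0.0663 to 0.190, while Erg, Flt1 and Kdr had mean signals of 3.92 to 5.78. The skeletal muscle markers Acta1 and Cav3 were at 6.77 to 7.68 and did not pass. The part of other cell types and of dividing cells in the change of Myh11 was not tested.

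Profiles like that of Myh11 were found by the distance between the 4 log2 signals, each taken relative to the mean of its gene. The nearest of the other named genes were Slit3 (a guidance ligand, distance 0.15), Nupr1 (a stress-induced nuclear protein, 0.17), Srebf1 (a lipid regulator, 0.29), Tp53inp1 (a p53-induced gene, 0.33) and Igfbp5 (a growth factor binding protein, 0.36). The nearest member, Actg2, stood at 2.26. For Acta2, the nearest were Abtb2, Farp1 and Mc3r, at 0.02 to 0.05, and among members Mylk at 0.19. With 4 arrays in 2 groups, such a distance mostly reflects the size of the change.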

How the data were processed

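RNA of rTSPCs was measured on 4 arrays, 2 for each treatment. The authors made the log2 values by RMA with default settings and global scaling and deposited them with 1 column for each array; the sources used here give no version of the software. The second deposited table held identical log2 values in 10141 of 10141 features. The platform annotation named 7240 features and 7235 genes; a gene with several features was represented by the one with the highest mean. The groups were compared with limma 3.58.1 in R 4.3.3 (lmFit, eBayes), two-sided, with Benjamini-Hochberg adjustment over 7235 genes at 0.05, as 18M + POG minus 18M + DMSO. No signal filter was applied. The count of 2 arrays in each group limits the precision. Standard errors of pairs came from within-array differences.

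Members and lists were chosen with earlier results of these data known. The lists hold smooth muscle genes by role, and markers of other cells. Genes named were the members, Srf and Myocd, up to 4 genes of each list that passed with the largest differences, all of a list with 5 or fewer measured, the 5 genes nearest to Myh11 and the 3 nearest to Acta2. Myh9, Atp2a2, Tpm1 to Tpm4, Ppp1r12a, Ppp1cb, Cspg4, Pdgfrb, Notch3, Higd1b, Cox4i2 and Scx were named after their values were seen. So were Comp, Thbs4, Ndufa4l2, Tgfbi, Kcnq5 and Jph2. Promoters came from RefSeq on GRCr8, and 1 window was used for each gene.

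Alternatives were the second table, quantile normalization, median subtraction, removal of the dimmest 25% of genes, feature means, all features, the replicate number as a block, a variance trend, a fold over 1.5, the methods' t-test and leaving out each array. Figures were drawn with matplotlib 3.10.9.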

Additional observations from a re-analysis of the deposited data

How the results depend on the processing

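The median log2 fold change of the members was 0.21 to 0.62 with 1 array left out, and the signs of Acta2 and Mylk turned in some of these fits. Myh11 exceeded the median of the other members by 2.72 to 3.07 when 1 array was left out. Which genes passed depended on the test. The methods' t-test takes the spread of each gene from its own 4 arrays, whereas limma shares the spread across genes. How much of the difference in counts this makes was not tested. By the methods' t-test with a fold over 1.5 and no adjustment, 786 named genes were higher and 784 lower, 27 list genes were higher and 9 lower, and 2 members (Myh11 and Actg2) were higher. With adjustment, the methods' t-test left 0 named genes higher and 0 lower, 0 list genes higher and 0 lower and 0 members. A variance prior with trend gave 23 lower list genes, against 14. A fold over 1.5 left 3 members, without Myl9. With 1 array left out, 523 to 660 named genes were higher and 592 to 619 lower, 16 to 19 list genes were higher and 4 to 7 lower, and 1 to 2 members were higher. The lone array of a group was then assumed to vary like the other group. Of 42 genes outside the members that the naming rule chose and that passed, all 42 kept their direction in these fits, 27 passed in all 4 and 6 in none. With the replicate number as a block (replicate block), 1599 named genes were higher and 1358 lower, and 4 members were higher. The numbers may not pair arrays, since deviations of same-numbered arrays correlated at 0.145 and the labels give no shared litter or day. Among the members and these 42 genes the block changed no call, and it brought Srf past the threshold.

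Low signals, such as those of Mylk, carry no detection value, and 2 arrays in each group limit what can be told of changes under the standard error of about 0.20. For the highest signals, such as those of Tagln and Acta2, a ceiling was not tested.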

Other observations

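Matrix genes that fibroblasts and myofibroblasts share were also examined, since Acta2 is counted among the markers of the myofibroblast. Of 13 measured myofibroblast matrix genes, 7 were higher in POG arrays by limma (53.8%, beside 20.4% of all named genes). The 2 lower ones (15.4%, beside 17.2%) were Tnc and Tgfbi, with Tgfbi at -0.755 (adjusted p = 0.00713). The summed log2 signal of the list was 20.52 to 20.57 in POG arrays and 19.99 to 20.05 in DMSO arrays. Fap, a surface protease of activated fibroblasts, gave 9.64 and 10.33 in POG arrays, against 8.18 and 8.49 in DMSO arrays (log2 fold change 1.65, adjusted p = 9.12e-05 from limma). The microfibril gene Fbn1 was higher at 1.54 (adjusted p = 4.11e-05) and the collagen gene Col3a1 at 1.11 (adjusted p = 0.000438), whereas Tnc, which encodes tenascin-C, was lower at -1.63 (adjusted p = 3.38e-05). With 1 array left out, 4 to 6 of the list were higher and 1 was lower. Fap, Fbn1, Col3a1 and Tnc kept their direction in each of those fits, as did Tgfbi (-0.805 to -0.705). Tnc and Col3a1 stand in the tendon list too.

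Of 11 measured tendon markers, 3 were higher (27.3%, beside 20.4% of all named genes) and 2 were lower (18.2%, beside 17.2%). The lower ones were Tnc and Thbs4, with Thbs4 at -0.925 (adjusted p = 0.00189 from limma). The cartilage intermediate layer gene Cilp gave 10.05 and 10.06 in POG arrays, against 6.54 and 6.26 in DMSO arrays (log2 fold change 3.66, adjusted p = 1.28e-08 from limma). Dcn was higher at 1.18 (adjusted p = 0.000297). With 1 array left out, 3 of these markers were higher and 1 to 2 lower.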
